A study of Mus musculus with 2 samples.

Results

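Low-threshold mechanoreceptors and proprioceptors are the dorsal root ganglion (DRG) neurons of light touch and of body position, and 10 genes that mark them were examined: Pvalb, Spp1, Calb1, Th, Slc17a8, Fam19a4, Cntnap2, Vsnl1, Esrrg and Heg1. They were taken by gene symbol from the 37008 gene names of a mouse expression array, with every non-control probe that carried the symbol. These were 19 probes, each printed in 1 spot. RNA of DRG neurons from C57BL/6 mice was hybridised to 1 array for Dock8-/- and 1 array for Dock8+/-, both with the (tcr)AND transgene, a T cell receptor. DOCK8 activates small GTPases in leukocytes. The level of IL-31, an itch cytokine, is labelled as high for the Dock8-/- sample and low for the Dock8+/- sample. Age, sex, whether animals were pooled and how neurons were separated from other ganglion cells are not given in the sources used here.

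Proprioceptors carry muscle stretch and tension to the spinal cord, and their cell bodies are rich in parvalbumin, the product of Pvalb. Low-threshold mechanoreceptors respond to light touch of the skin. The unmyelinated class among them, the C-fibre low-threshold mechanoreceptor of hairy skin, is known for tyrosine hydroxylase (Th), the vesicular glutamate transporter VGLUT3 (Slc17a8) and the secreted protein TAFA4 (Fam19a4).

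The C-fibre genes held the lowest value among the markers as well as one above 0, so a probe of each is shown first. For Th this is the dimmer of its measured probes, while the value of the gene came from the brightest. Each printed probe is 60 bases long, is written 5′ to 3′, and has its longest run of A and G in capitals. Coordinates are those of the array files on mouse build mm9, and all of these probes lie on the minus strand. The Th probe lies at chr7:150080370-150080581, the Slc17a8 probe at chr10:89046159-89046218 and the Fam19a4 probe at chr6:96793753-96793812.
Th, probe at transcript position 1076: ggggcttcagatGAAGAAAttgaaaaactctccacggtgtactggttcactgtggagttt
Slc17a8: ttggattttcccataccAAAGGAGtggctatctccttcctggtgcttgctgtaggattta
Fam19a4: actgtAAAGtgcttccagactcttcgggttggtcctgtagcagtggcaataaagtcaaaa
The Th probe spans 212 bases of the genome, 152 more than its own length, and so crosses a splice junction. Repeats of GA or GAA reached at most 2 units in any of the 19 marker probes. A count made after the data had been seen found 4 or more such units in 0 of the 19, against 0.339% of all 56601 probes. GC content of the 19 probes lay between 35.0% and 48.3%.

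The values are processed Cy3 intensities on a linear scale, and ± is the error that the image analysis software wrote beside each of them. The Dock8-/- array was dimmer throughout, with a 75th percentile of 145.6 against 303.8 on the Dock8+/- array, or 47.9%. The share of probes well above background was 50.7% for Dock8-/- and 56.9% for Dock8+/-. Differences are therefore log2 differences, Dock8-/- minus Dock8+/-, after subtraction of each array's 75th percentile. A gene took its brightest probe measured on both arrays, as 18664 genes were. With 1 array per genotype there is no test and no replicate spread. A 2-fold size was used as a description, which 7.02% of the 18664 genes passed downwards and 9.09% upwards in Dock8-/- (1311 and 1697 genes). That split became 1529 and 1312 under loess, 863 and 703 under normexp background correction, and 16303 and 57 on the scale of the spike-in transcripts, which shifted all genes by -1.85. The 298 probes printed in 10 spots gave an SD of 0.06 for a difference between single spots. Probes of 1 gene were further apart, with a median range of 0.66 over 6234 genes and a range above 1 in 30.2% of them.

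All 10 markers were measured on both arrays, through 16 of the 19 probes. Of the 10 genes, 1 was at least 2-fold lower in Dock8-/- (Fam19a4) and 0 were at least 2-fold higher, beside 7.02% and 9.09% of all genes. Of the 16 probes, 2 were at least 2-fold lower, the printed probes of Th and Fam19a4, and 0 were at least 2-fold higher, beside 7.06% and 11.8% of all 27733 measured probes. The markers lay on both sides of 0, with 5 below and 5 above, from -1.18 for Fam19a4 to 0.78 for Heg1, with a median of -0.11. All genes had a median of 0.03 and an SD of 0.78, and 48.2% of them lay below 0. On the spike-in scale Calb1, Slc17a8, Cntnap2, Vsnl1 and Heg1 turned to below 0 and all 10 markers were at least 2-fold lower. In a bulk sample, fewer cells of a type and less RNA per cell cannot be told apart.

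**Figure D1:**
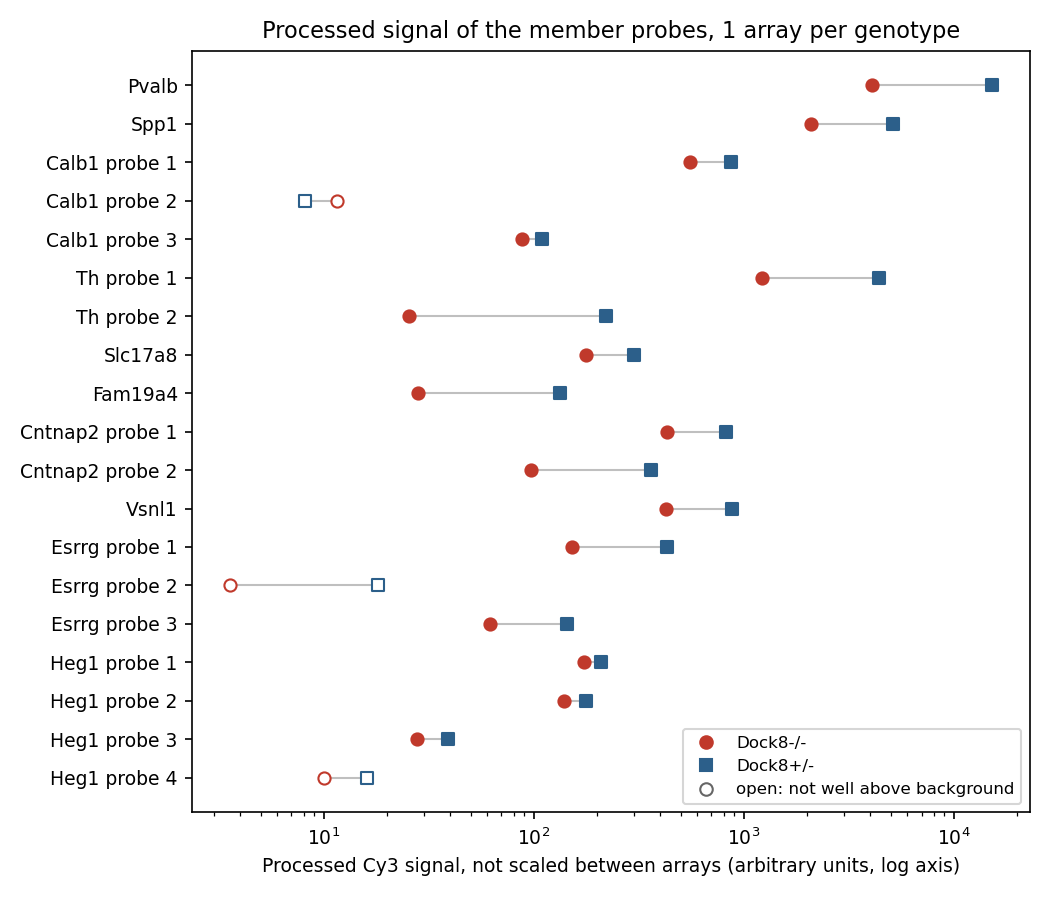
Processed Cy3 signal of each of the 19 marker probes, not scaled between arrays (arbitrary units, log axis), as red circles for Dock8-/- and blue squares for Dock8+/-, 1 array each; open symbols are not well above background. Each of the 16 measured probes was dimmer in Dock8-/-, at 11.5% to 82.3% of its Dock8+/- signal, and the longest line is that of the second Th probe.

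Pvalb encodes parvalbumin, a calcium-binding protein that DRG proprioceptors share with fast muscle fibres and some interneurons. Its signal was 4063 ± 406 in Dock8-/- and 15109 ± 1511 in Dock8+/-. After scaling Pvalb was 1.78-fold lower in Dock8-/-, a log2 difference of -0.83, and 10.1% of all genes lay as low or lower. Under normexp it passed the 2-fold size, at -1.06. The reading comes from 1 probe at chr15:78021951-78022010 (minus strand, mm9). Genes of skeletal muscle were mostly lower beside it. Of 14 such genes 7 were measured, 5 of them at least 2-fold lower, while Myh4, at 0.72, and Atp2a1, at 0.23, lay above 0 (both named after their values were seen). Both had low signal, with 18.7 in Dock8-/- and 23.6 in Dock8+/- for Myh4, and 25.9 and 46.1 for Atp2a1. With no background filter a brighter Myh4 probe was taken, at -7.87, and under loess Atp2a1 turned to -0.09. Myl1, at -3.64 on its brightest probe, had another probe at 2.13. The list's median was -3.64, and its summed signal, each gene divided by its array's 75th percentile, was 2.13 in Dock8-/- and 25.4 in Dock8+/-. The other 7 cleared background in Dock8+/- alone, and Acta1, the actin of skeletal muscle, was at least 9.17-fold lower in Dock8-/-. Tnnt3, a troponin of fast fibres, was 16.2-fold lower. The part of muscle RNA in the Pvalb difference was not tested.

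Further genes of large myelinated afferents were read beside Pvalb. Nefh, the heavy neurofilament subunit, had -0.32, with 14750 in Dock8-/- and 38333 in Dock8+/-. Ntrk3, the receptor for neurotrophin 3 on which proprioceptors depend, had -0.17 on its brightest probe, while its 4 probes ran between -0.78 and 0.83. Etv1, a transcription factor of proprioceptors, had 0.26. Runx3, a transcription factor of the same lineage, had a signal of 17.7 in Dock8-/-, not well above background, and 27.5 in Dock8+/-, which allows no fold.

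Spp1 encodes osteopontin, a secreted phosphoprotein found in large DRG neurons and also in bone, macrophages and Schwann cells. Its signal was 2091 ± 209 in Dock8-/- and 5131 ± 513 in Dock8+/-, a difference of -0.23 or 1.18-fold lower, from 1 probe at chr5:104869788-104869847 (plus strand). This lay nearer to the median of all genes than Pvalb, with 33.5% of genes as low or lower. Genes of the other cell types that make Spp1 were read beside it. Of 12 macrophage genes 12 were measured and 9 were at least 2-fold lower. Their median was -1.43, and their summed scaled signal was 41.8 in Dock8-/- and 151.9 in Dock8+/-. Lyz2, encoding lysozyme, was 7.33-fold lower among them. Of 10 cartilage and bone genes 5 were measured and 3 were at least 2-fold lower. Their median was -2.92, with sums of 2.11 in Dock8-/- and 18.9 in Dock8+/-. Neither array had the bone markers Ibsp and Bglap or the cartilage collagen Col10a1 well above background. Among 10 genes of Schwann cells and myelin the median was -0.38, with 1 at least 2-fold higher and 2 lower and sums of 572.0 in Dock8-/- and 651.7 in Dock8+/-. The part of these cells in the Spp1 value was not tested.

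The genes of C-fibre low-threshold mechanoreceptors differed in direction. Fam19a4, whose product TAFA4 modulates injury-induced mechanical hypersensitivity, had a signal of 28.1 ± 4.56 in Dock8-/- and 132.8 ± 13.8 in Dock8+/-. It was 2.27-fold lower, at -1.18, and 4.92% of all genes lay as low or lower. The Dock8-/- signal was close to 16.1, the lowest of any probe well above background on that array. Under normexp the difference was -0.34, short of the 2-fold size, while under loess it was -1.41. The authors' deposited value table held 39.6 for Dock8-/- and 100.1 for Dock8+/-, a difference of -1.34.

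Th encodes tyrosine hydroxylase, the rate-limiting enzyme of catecholamine synthesis. Its brightest probe, at chr7:150078703-150078762 and transcript position 1675, had 1219 ± 122 in Dock8-/- and 4402 ± 440 in Dock8+/-. This was 1.73-fold lower, at -0.79, with 11.0% of all genes as low or lower. The junction probe printed above, 599 bases upstream in the transcript, had 25.4 ± 4.71 in Dock8-/- and 221.0 ± 22.5 in Dock8+/-, which was 4.16-fold lower at -2.06. Both Th probes were thus lower in Dock8-/-, by sizes that were 1.27 apart. Under normexp the order of the sizes was the other way round, with -0.97 for the downstream and -0.81 for the junction probe. The mean of both probes was -1.42.

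The gap between the Th probes was set beside all pairs of measured probes at least 300 bases apart on 1 transcript, a comparison chosen after the data had been seen. Over 3375 pairs the upstream probe was higher by a median of 0.18, with the middle of the distribution between -0.36 and 0.71 (quartiles), and it was the lower one in 40.5% of pairs. The Th pair, at -1.27, lay at percentile 2.46 of these pairs. Without regard to which probe is upstream, the gap was larger than that of 81.1% of genes with several measured probes, and it lay between -1.54 and -1.27 under the other scalings and in the value table but turned to 0.17 under normexp. The percentile among pairs was computed under the 75th percentile scaling and is a description of 2 arrays.

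Th also marks sympathetic neurons, so their genes were read beside it. Of 10 sympathetic and catecholamine genes, Dbh, Phox2a, Hand2 and Chrna3 did not clear background on either array, and Slc6a2, Slc18a2 and Gata3 did so in Dock8+/- alone. Ddc and Gch1, the members measured on both arrays, were not lower. Ddc, encoding the enzyme that follows tyrosine hydroxylase, had 1043 in Dock8-/- and 187.9 in Dock8+/-, an 11.6-fold higher value, and Gch1, needed for the cofactor of Th, had 0.45. The summed scaled signal of both genes was 8.55 in Dock8-/- and 1.63 in Dock8+/-.

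Slc17a8 loads glutamate into synaptic vesicles. It had 176.1 ± 17.9 in Dock8-/- and 299.2 ± 30.1 in Dock8+/-, a scaled difference of 0.30 or 1.23-fold higher, which turned to -1.55 on the spike-in scale. Slc17a8 thus lay on the other side of 0 from Th and Fam19a4 under the 75th percentile scaling. Gfra2, a receptor subunit for neurturin that C-fibre low-threshold mechanoreceptors carry, had 0.00, with 2513 in Dock8-/- and 5243 in Dock8+/-. Ret, the signalling partner of Gfra2, had 0.78, with 2279 in Dock8-/- and 2762 in Dock8+/-, and Tafa1, a relative of Fam19a4 named after its value was seen, had 0.93. Ret and Tafa1 turned to below 0 on the spike-in scale.

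**Figure D2:**
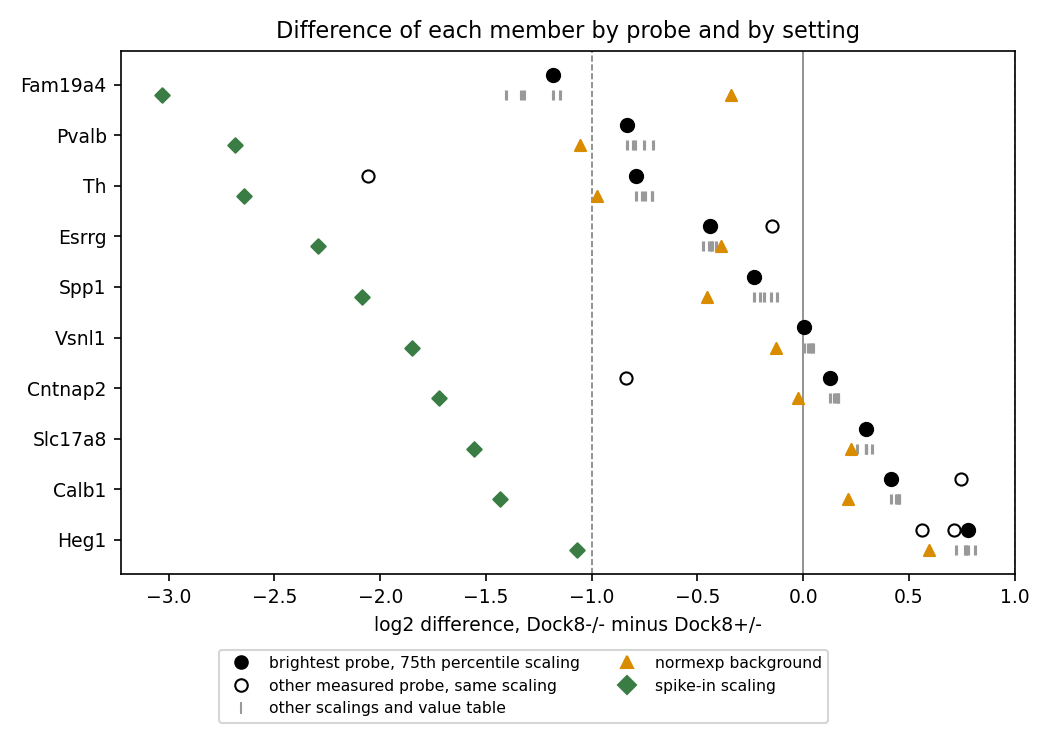
Log2 difference, Dock8-/- minus Dock8+/-, of each marker (1 array per genotype): filled black circles are the brightest probe and open circles the other measured probes under 75th percentile scaling, triangles the normexp values, diamonds the spike-in scale, and grey ticks the other scalings and the authors' value table. Fam19a4 lies at -1.18 but at -0.34 under normexp, the second Th probe lies at -2.06, the probes of Cntnap2 lie on both sides of 0, and every marker lies below -1 on the spike-in scale.

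Calb1 encodes calbindin, a calcium buffer. Its signal was 553.5 ± 55.5 in Dock8-/- and 866.1 ± 86.7 in Dock8+/-, a difference of 0.42 or 1.33-fold higher that turned to -1.44 on the spike-in scale (chr4:15832543-15832602, plus strand). Another Calb1 probe had 87.3 in Dock8-/- and 108.7 in Dock8+/-, a difference of 0.74. Both measured Calb1 probes were therefore higher after scaling, though both were lower on the spike-in scale. The third probe was not well above background, with 11.6 in Dock8-/- and 8.09 in Dock8+/-. Vsnl1, which encodes a neuronal calcium sensor of the visinin family, had 423.3 ± 42.6 in Dock8-/- and 881.5 ± 88.3 in Dock8+/-. Its difference was 0.00 and became -0.13 under normexp and -1.85 on the spike-in scale.

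Spinal cord genes, some of whose neurons also express Calb1, Pvalb, Esrrg, Cntnap2 and Vsnl1, went in both directions beside Calb1, 8 above 0 and 3 below. Of 12 such genes 11 were measured, 6 at least 2-fold higher and 1 lower, and the median was 1.15, which the spike-in shift of -1.85 turns to below 0. The summed scaled signal was 61.9 in Dock8-/- and 26.9 in Dock8+/-, but 30.5 in Dock8-/- and 23.2 in Dock8+/- without Gfap. Slc6a5, the glycine transporter of inhibitory spinal neurons, named after its value was seen, had -1.20. Gfap, an intermediate filament of astrocytes that other glia can also make, was 8.42-fold higher with 4570 in Dock8-/- and 1133 in Dock8+/-, and the motor neuron factor Mnx1 did not clear background on either array. The part of spinal cord RNA in the values of Calb1, Vsnl1, Cntnap2 and Esrrg was not tested.

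Cntnap2 encodes CASPR2, an adhesion protein that holds potassium channels beside the nodes of myelinated axons. Its probes did not go the same way. The brightest, for transcript NM_001004357 at chr6:47251315-47251374, had 430.3 ± 43.2 in Dock8-/- and 822.4 ± 82.3 in Dock8+/-, a difference of 0.13. The other, for transcript NM_025771 at chr6:47249076-47249135, had 97.2 ± 10.3 in Dock8-/- and 362.4 ± 36.4 in Dock8+/-, which was 1.79-fold lower at -0.84. The difference between these probes, 0.96, is larger than that of 68.2% of genes with several measured probes. The brightest Cntnap2 probe turned to -0.03 under normexp, and the mean of both probes was -0.35, so the sign for the gene depends on the probe and the setting.

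Esrrg encodes oestrogen-related receptor gamma, an orphan nuclear receptor of oxidative metabolism. It had 151.0 ± 15.5 in Dock8-/- and 428.3 ± 43.0 in Dock8+/-, a difference of -0.44 or 1.36-fold lower (chr1:190038683-190038742, plus strand). A neighbouring probe had 62.0 in Dock8-/- and 143.3 in Dock8+/-, at -0.15, and this probe turned to 0.10 under normexp. The third Esrrg probe was not well above background, with 3.59 in Dock8-/- and 18.1 in Dock8+/-.

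Heg1 encodes a transmembrane protein of heart and vessel development that endothelial cells also make. It had 172.5 ± 17.7 in Dock8-/- and 209.5 ± 21.3 in Dock8+/-, a difference of 0.78 or 1.72-fold higher (chr16:33722847-33722906, plus strand). This was the highest of the markers, and it turned to -1.07 on the spike-in scale. Of all genes, 85.5% lay as low or lower. The other measured Heg1 probes had 0.71, with 138.8 in Dock8-/- and 176.9 in Dock8+/-, and 0.56, with 27.6 in Dock8-/- and 39.1 in Dock8+/-. The 3 measured probes thus went the same way, within 0.22 of each other, and were all below 0 on the spike-in scale. The fourth was not well above background, with 9.99 in Dock8-/- and 16.0 in Dock8+/-. Of 10 endothelial genes 8 were measured, 0 at least 2-fold higher and 1 lower, with a median of -0.29 and a summed scaled signal of 36.7 in Dock8-/- and 42.9 in Dock8+/-. After scaling, Heg1 was higher and the endothelial sum lower, but 3 of the 8 endothelial genes lay above 0, as Heg1 did, and 5 below. Of those above 0, Pecam1 had a low signal, 25.2 in Dock8-/- and 34.3 in Dock8+/-. The other 2 genes of the list, Tek and Tie1, cleared background in Dock8+/- alone. They were at least 1.74-fold and 1.73-fold lower in Dock8-/- (all 3 named after their values were seen). Much of the sum came from Egfl7, named after its value was seen. Before scaling Egfl7 had 3502 of a summed 5338 in Dock8-/- and 8810 of 13032 in Dock8+/-. The part of endothelial RNA in the Heg1 value was not tested.

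**Figure D3:**
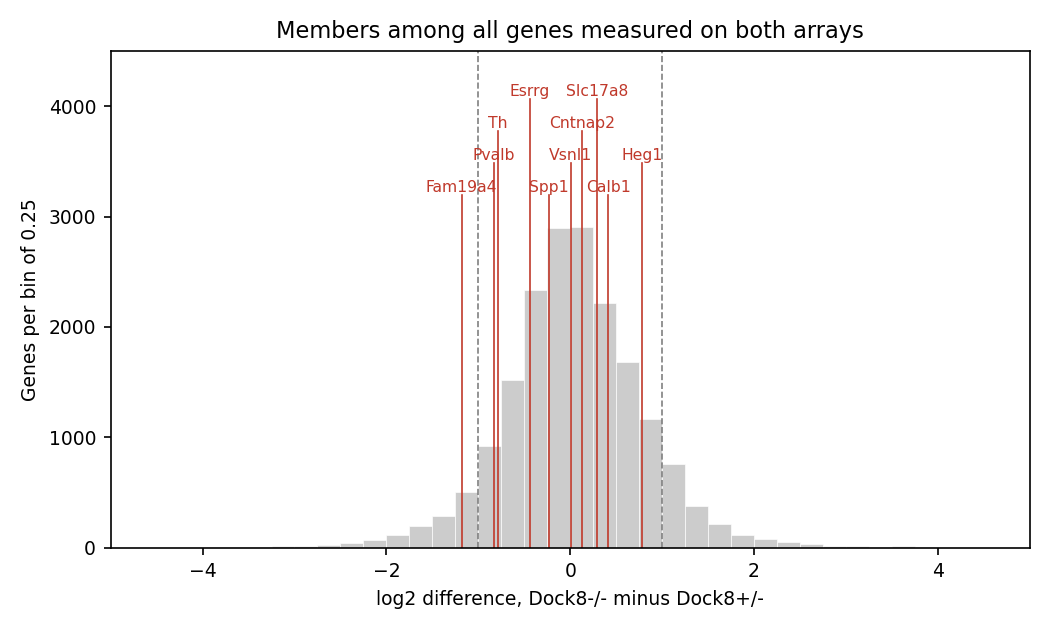
Distribution of the log2 difference, Dock8-/- minus Dock8+/-, over the 18664 genes measured on both arrays (grey, genes per bin of 0.25), with the 10 markers as red lines and the 2-fold size as dashed lines. Fam19a4 is the only marker outside the dashed lines, and the others spread over both sides of 0 up to Heg1 at 0.78, under the 75th percentile scaling.

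A wider list of 29 genes of low-threshold mechanoreceptors and proprioceptors, without the 10 markers, was centred near 0. Of these 27 were measured, and 0 passed the 2-fold size in either direction, beside 9.09% upwards and 7.02% downwards over all genes. With the mean of probes, Npy2r and Tafa1 passed it upwards, and on the spike-in scale 25 were at least 2-fold lower. Their median was -0.03, with a lowest value of -0.51 and a highest of 0.93, 13 above 0 and 14 below. The summed scaled signal of the 27 genes was lower in Dock8-/-, at 438.6 against 513.5 in Dock8+/-. Piezo2, the channel that opens on touch and stretch, had 0.09, with 2070 in Dock8-/- and 4046 in Dock8+/-, but its 4 probes ran between -1.11 and 0.48. Ntrk2, the receptor for brain-derived neurotrophic factor on D-hair touch neurons, had -0.25, with 686 in Dock8-/- and 1708 in Dock8+/-. Slc17a7, the vesicular glutamate transporter of large afferents, cleared background in Dock8+/- alone, and was at least 1.51-fold lower in Dock8-/-, with 3.58 in Dock8-/- and 50.8 in Dock8+/-. On the brightest probe, then, Fam19a4 was the only gene past the 2-fold size among the 10 markers and these 27 genes under the 75th percentile scaling.

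Lists of other neurons had medians near the same place. The 15 nociceptor genes had a median of -0.05, with Nppb 2.22-fold higher, and the 15 pan-neuronal genes a median of 0.15. Pou4f1, a transcription factor of sensory neurons, was the only pan-neuronal gene past 2-fold, at 3.09, and its 3 probes ran between 0.09 and 3.09. The summed scaled signal of pan-neuronal genes was 1416 in Dock8-/- and 1375 in Dock8+/-, and that of nociceptor genes was 599.3 in Dock8-/- and 571.8 in Dock8+/-. The nociceptor sum was thus higher in Dock8-/-, while the sum of the wider list above was lower. The pan-neuronal sum includes the Pou4f1 probe at 3.09, with 9382 in Dock8-/- and 2292 in Dock8+/- before scaling. On the scaled log2 axis this probe had 6.01 in Dock8-/- and 2.92 in Dock8+/-. Without it the pan-neuronal sum is lower in Dock8-/- than in Dock8+/-, so the direction of that sum rests on 1 probe. All 15 pan-neuronal and all 15 nociceptor genes were measured on both arrays labelled DRG neurons, with satellite glia and Schwann cell genes beside them. The 10 satellite glia genes had a median of 0.79, with 4 at least 2-fold higher and 1 lower, and sums of 919.2 in Dock8-/- and 699.0 in Dock8+/-. The spike-in shift of -1.85 is larger in size than this median and turns it to below 0.

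**Figure D4:**
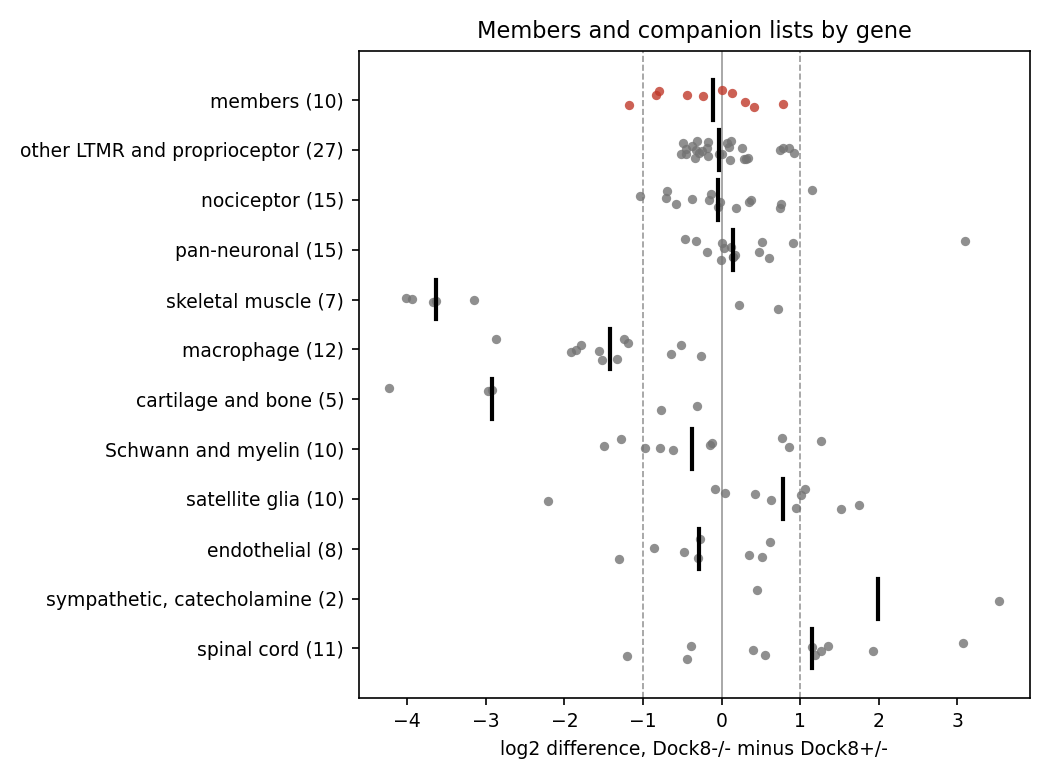
Log2 difference, Dock8-/- minus Dock8+/-, of the 10 markers (red) and of the genes of each companion list measured on both arrays (grey, number in brackets), with the median as a black bar and the 2-fold size as dashed lines. Under the 75th percentile scaling the markers (median -0.11) and the other genes of the same neurons (median -0.03) lie near 0. Under the same scaling the medians of muscle, macrophage and cartilage genes lie below 0 and that of spinal cord genes above. However, 2 muscle genes, both of low signal, lie above 0, and 3 spinal cord genes lie below. The spike-in scale shifts every point by -1.85.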

How the data were processed

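The authors deposited scanner files of linear spot intensity from Agilent Feature Extraction, version 10.7.1.1 per the file headers and 9.5.1.1 per the submitters' processing notes. Processed intensity is background-subtracted and detrended, per the file headers. The deposited value table, also linear intensity, held the same sorted values in both columns (98.9% exactly equal, largest gap 0.664, median 27.9 in each column), as quantile normalisation gives. Its direction is that of intensity, with no centring of genes seen, and 0 of its value columns were unused.

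Spots of a probe were averaged on the log2 scale of processed intensity, less the 75th percentile of the array. Spots marked non-uniform were dropped (1 in Dock8-/-, 3 in Dock8+/-), and 0 were saturated. A probe was measured if well above background on both arrays. Below background on 1 array, the fold is a bound against the higher of the probe's own signal and the lowest signal well above background there (16.1 in Dock8-/-, 17.4 in Dock8+/-). Probe positions are on mm9, whose exon and UTR annotation was not used here. Names came from RefSeq tables of GRCm38.p6: 32990 probes by accession, 10224 by symbol and 520 by older symbol, with 12867 as in the file.

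The markers, the gene lists and the naming rule were chosen with earlier results of these data known. The rule names all 10 markers, 8 fixed genes (Ntrk2, Ntrk3, Runx3, Etv1, Piezo2, Ret, Gfra2, Nefh), and up to 4 genes at least 2-fold apart per list. Some genes of the lists are not reported here by name. Genes outside the rule were named after their values were seen. Alternatives were other scalings, normexp (offset 50), loess (span 0.3), spike-in scaling on 8 probes, the value table, the mean of probes, other filters, and 1.5-fold and 3-fold sizes. The number of arrays, 1 per group, limits the precision. The scaling code was tested on simulated data. Software was Python 3.11.15, pandas 2.3.3, R 4.3.3 and limma 3.58.1.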

Additional observations from a re-analysis of the deposited data

How the results depend on the processing

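No paired analysis was possible because only 1 array represents each genotype, and no replicate could be left out. All 10 markers kept their sign under both scalings on detected probes, quantile normalisation, loess and the authors' value table. The 3 other filters kept the same probe for every marker, so no marker value moved and they say nothing on the signs. Normexp turned Cntnap2 and Vsnl1 to below 0, the mean of probes turned Cntnap2, and spike-in scaling turned 5 markers. The median of the markers was -0.11, but -0.041 under quantile normalisation, -0.23 under normexp, -0.26 with the mean of probes and -1.97 under spike-in scaling. The count of markers at least 2-fold lower was 1, but 2 with the mean of probes (Th and Fam19a4) and 10 under spike-in scaling, where all genes shift by -1.85. Under normexp it was again 1, but that gene was Pvalb. By construction, a size of 1.5-fold gave 3 lower and 1 higher, and 3-fold gave 0 lower. Over all genes, 1311 lower and 1697 higher became 2584 and 2220 with 1 array above background sufficing, 2073 and 3427 with the flag for positive and significant signal, and 2758 and 5437 with no filter. Apart from the sizes and filters, the cause was not tested. Low signal limits Fam19a4, the junction probe of Th and the dimmest measured Heg1 probe, which had 28.1, 25.4 and 27.6 on the Dock8-/- array, near its floor of 16.1.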

Other observations

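Relatives of the markers were listed after the data had been seen, and the values below are descriptions of 1 array per genotype under 75th percentile scaling. Genes for receptors of osteopontin, the product of Spp1, were mostly lower. Of 7 measured, 4 were at least 2-fold lower in Dock8-/-, with a list median of -1.03. The integrin beta 3 gene Itgb3 had 46.7 in Dock8-/- and 374.1 in Dock8+/-, a difference of -1.94. Itga9 had -1.52, Itga4 -1.47 and Itgb5 -1.03, whereas Cd44 had 0.99 and Itgav 0.45. Under normexp Itga9 was at -0.92 and Itga4, with a low signal of 25.2 in Dock8-/-, at -0.36. Macrophage genes, with a median of -1.43, were lower beside these receptor genes, and the part of macrophages was not tested.

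Around Th, the steps of catecholamine metabolism went in both directions. Pts, an enzyme of cofactor synthesis, had -0.99, while Qdpr had 0.17 and Maoa, a monoamine oxidase, 1.04. Among relatives of Fam19a4, Tafa2 had 0.25, Tafa3 0.60 and Tafa5 -0.12, so none of the 4 relatives measured was 2-fold lower. Of the calcium-binding relatives of Pvalb, Calb1 and Vsnl1, Hpcal4 was 3.27-fold and Necab1 3.17-fold higher, and Calb2 (calretinin) was 2.29-fold lower. Another Calb2 probe had 0.16. The brightest Calb2 probe had a low signal, 21.9 in Dock8-/-, and was at -0.23 under normexp. Each of the values above 0 in this paragraph and the previous one turns to below 0 on the spike-in scale.

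The 9 measured genes of the complex around Cntnap2 had a median of 0.29 on their brightest probes, and 0 were 2-fold apart. Other probes of Cntn2 and Dlg4 had 1.33 and 1.31. Kcna1, a potassium channel that CASPR2 holds, had 0.29 and Kcna2 -0.45. The oestrogen-related receptors besides Esrrg were lower on their brightest probes, with -0.66 for Esrra, whose other probe had 1.13, and -0.85 for Esrrb. Esrrb had a low signal, 41.6 in Dock8-/-, and was at -0.21 under normexp. The co-activators of these receptors, Ppargc1b and Ppargc1a, had -0.63 and -0.17. The 6 measured partners of HEG1 had a median of 0.00 on their brightest probes, and 0 were 2-fold apart. The 4 probes of Krit1 among them ran between -0.37 and 2.12.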
